A study of Homo sapiens with 4 samples.

Results

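The regions described here are accessible sites at 5 receptor tyrosine kinase genes and 1 ligand gene in BCPAP cells. Every ATAC-seq peak that overlapped 6 windows of the hg19 build was taken, whatever its height or change. The genes and rules were chosen with earlier results of these data known. The windows lay on chromosome 7 from 116290 to 116460 kb (MET) and from 55065 to 55295 kb (EGFR), on chromosome 10 from 43550 to 43645 kb (RET), on chromosome 15 from 99170 to 99530 kb (IGF1R), on chromosome 12 from 56455 to 56515 kb (ERBB3) and on chromosome 8 from 31475 to 32640 kb (NRG1). Overlapping peaks of the 4 libraries were joined to regions, which gave 435 regions in the windows, of 373425 on chromosomes 1 to 22 and X. The study set BCPAP cells given 5-azacytidine (2 libraries) against untreated cells of the same line (2 libraries). BCPAP is an established human papillary thyroid carcinoma line, and 5-azacytidine is a cytidine analogue that is built into nucleic acid, traps DNA methyltransferases and so lowers CpG methylation. The sample labels name no dose and no length of treatment, while the names of the deposited lists carry 2 uM for treated and 0 uM for untreated cells. The labels do not say whether the replicates came from separate cultures. Spread between replicates may therefore be only technical. The identity of the line was not checked against marker genes, since gene positions on hg19 were not used here.

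Receptor tyrosine kinases span the cell membrane, bind a growth factor outside the cell and phosphorylate tyrosines inside it, which feeds the MAPK and PI3K pathways. MET binds hepatocyte growth factor, EGFR binds EGF and related ligands, and IGF1R binds the insulin-like growth factors. RET binds the GDNF family together with a co-receptor, is normally little used in follicular thyroid cells, and is switched on by fusion to other genes in part of papillary thyroid cancers. ERBB3 has little kinase activity of its own and signals when paired with ERBB2 or EGFR, and NRG1 encodes neuregulin, its ligand. In ATAC-seq a transposase cuts exposed DNA, so accessible promoters and enhancers appear as peaks of reads.

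The RefSeq promoter sequences of 4 of the genes are shown because 5-azacytidine acts through CpG sites. They hold the 250 bases upstream of the first start RefSeq lists for each gene (GRCh38.p14, plus strand, 5′ to 3′), with each CpG in capitals. IGF1R had 48 CpGs in these bases, and only 0.262% of 35116 RefSeq promoters had as many or more. RET had 33 CpGs, reached by 8.15% of promoters, EGFR had 25, reached by 21.6%, and MET had 24, reached by 23.7%. The median promoter had 11. A second start listed for EGFR had 1 CpG and a second start of RET had 6. Whether these bases lie under a listed peak was not determined, because the peaks are on another build.
MET: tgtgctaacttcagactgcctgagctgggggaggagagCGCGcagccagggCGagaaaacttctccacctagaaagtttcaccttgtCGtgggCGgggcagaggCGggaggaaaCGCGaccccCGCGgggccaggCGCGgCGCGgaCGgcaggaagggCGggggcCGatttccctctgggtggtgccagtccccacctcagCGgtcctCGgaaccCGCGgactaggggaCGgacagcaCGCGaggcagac
EGFR: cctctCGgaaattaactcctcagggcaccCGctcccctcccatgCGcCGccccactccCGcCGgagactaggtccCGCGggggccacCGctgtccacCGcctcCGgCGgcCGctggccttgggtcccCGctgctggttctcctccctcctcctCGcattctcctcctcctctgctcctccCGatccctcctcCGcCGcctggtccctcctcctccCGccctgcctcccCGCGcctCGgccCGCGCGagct
RET: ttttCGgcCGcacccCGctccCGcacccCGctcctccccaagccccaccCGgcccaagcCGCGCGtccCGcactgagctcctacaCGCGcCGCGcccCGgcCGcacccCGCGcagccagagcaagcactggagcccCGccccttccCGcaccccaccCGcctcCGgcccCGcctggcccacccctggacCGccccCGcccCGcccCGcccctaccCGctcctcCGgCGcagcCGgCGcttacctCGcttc
IGF1R: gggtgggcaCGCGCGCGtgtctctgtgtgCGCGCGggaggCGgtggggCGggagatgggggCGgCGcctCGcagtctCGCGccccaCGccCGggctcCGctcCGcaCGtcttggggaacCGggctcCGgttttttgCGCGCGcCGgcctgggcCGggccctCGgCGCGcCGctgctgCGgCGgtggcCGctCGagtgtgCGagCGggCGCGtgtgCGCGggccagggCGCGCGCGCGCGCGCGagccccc

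Each library has its own list of peaks, nearly all 500 bp wide. The lists held 259572 and 245142 peaks in the treated libraries and 221110 and 223345 in the untreated libraries. The height of a peak is given as the summit coverage, the number of reads at its summit, which is recovered from the fold enrichment of the authors' peak caller. The labels give about 2 Gb of sequence per library, and the number of reads kept per library is unknown. The background coverage implied by the fold values was 0.898 and 0.875 in treated replicates 1 and 2. In untreated replicates 1 and 2 it was 0.913 and 0.898. The part of depth in the heights of peaks was not tested. Peaks were lowest in treated replicate 1. Over the 105414 regions with a peak in all 4 lists, called shared, the median summit coverage was 11 and 16 in treated replicates 1 and 2, and 23 and 18 in untreated replicates 1 and 2. Relative coverage is therefore used beside it, the summit coverage divided by that median of its library. The lowest coverage of a listed peak was 4 in every library, which is a relative coverage of 0.364 and 0.25 in the treated and 0.174 and 0.222 in the untreated libraries. A weak shared region thus starts at a higher relative coverage in treated cells.

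The IGF1R, EGFR and RET windows held more peaks in both treated libraries than in either untreated one. The IGF1R window held 83 and 97 peaks in treated replicates 1 and 2, against 56 and 60 in untreated replicates 1 and 2. The mean was 90.0 ± 9.90 in treated cells and 58.0 ± 2.83 in untreated cells (SD, n = 2 each), 55.2% more in treated cells. The EGFR window held 75 and 91 peaks in treated cells and 62 and 66 in untreated cells, 29.7% more. At RET the treated lists held 25 and 22 peaks and the untreated lists 14 and 21, 34.3% more, and untreated replicate 2 lay just below treated replicate 2. All chromosomes together had 13.6% more peaks in treated cells, so a surplus of that size is the background here. By an exact permutation test (two-sided), p was 0.333 for each of these windows, the smallest value that 2 libraries against 2 allow. With lists cut to equal length by the strongest peaks, the log2 ratio was 0.47 at IGF1R, 0.18 at EGFR and 0.041 at RET, against 0.63, 0.38 and 0.43 in the full lists. With only peaks of a −log10 q of at least 5 it was 0.15 at IGF1R, 0.33 at EGFR and 0.22 at RET, while the ratio over all chromosomes was −0.22 with that minimum and 0.18 in the full lists.

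At MET, ERBB3 and NRG1 the groups overlapped. MET had 25 and 31 peaks in treated cells and 27 and 26 in untreated cells. ERBB3 had 23 and 14 in treated cells and 16 and 22 in untreated cells. NRG1, the longest window, had 58 and 75 in treated cells and 84 and 70 in untreated cells, on average 66.5 in treated cells and 77.0 in untreated cells. The exact two-sided permutation p was 1 for MET, 1 for ERBB3 and 0.667 for NRG1. Differences between windows were not tested. Over the 6 windows the treated lists held 289 and 330 peaks and the untreated lists 259 and 265, 18.1% more in treated cells (log2 ratio 0.24). With that minimum of 5 for −log10 q, the ratio was −0.024 in the windows and −0.22 over all chromosomes.

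**Figure D1:**
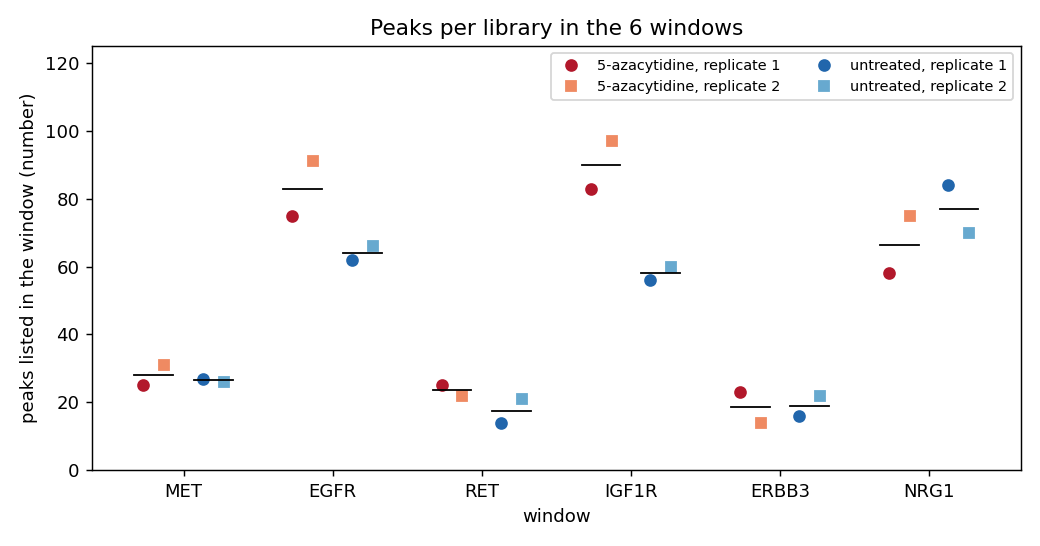
Number of listed peaks (y axis) in each of the 6 windows (x axis), with 1 point per library and a black line for the mean of each group. The treated points at IGF1R (83 and 97) and EGFR (75 and 91) lie above the untreated points (56 and 60, and 62 and 66), while the groups overlap at MET, ERBB3 and NRG1.

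Regions listed in each treated library but in no untreated one are called gained, and those listed in each untreated library but in no treated one are called lost. The windows held 19 gained regions, 4.37% of their 435, and 10 lost regions, 2.30%. Over all regions 4.21% were gained and 3.35% lost, so the 6 windows together were close to the background. The gained regions were unevenly placed. IGF1R held 9 of them (8.04% of its 112 regions) and EGFR held 7 (6.36% of its 110 regions), while MET held 0 and RET, ERBB3 and NRG1 held 1 each. Of the lost regions, NRG1 held 4 and MET held 3, RET, IGF1R and ERBB3 held 1 each, and EGFR held 0. These are counts of a few regions, and presence in 2 libraries against 2 cannot be tested for a single region. Of the 19 gained regions, 1 (at EGFR) had a −log10 q of at least 5 in both treated lists, and 0 of the 9 at IGF1R did. The gained regions had a summit coverage of 4 to 9 (median 7) in treated replicate 1 and 4 to 18 (median 6) in treated replicate 2, where all gained regions had a median of 6 in each. Lost regions had 4 to 15 (median 7) in untreated replicate 1 and 5 to 9 (median 6) in untreated replicate 2, where all lost regions had a median of 7 in each.

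**Figure D2:**
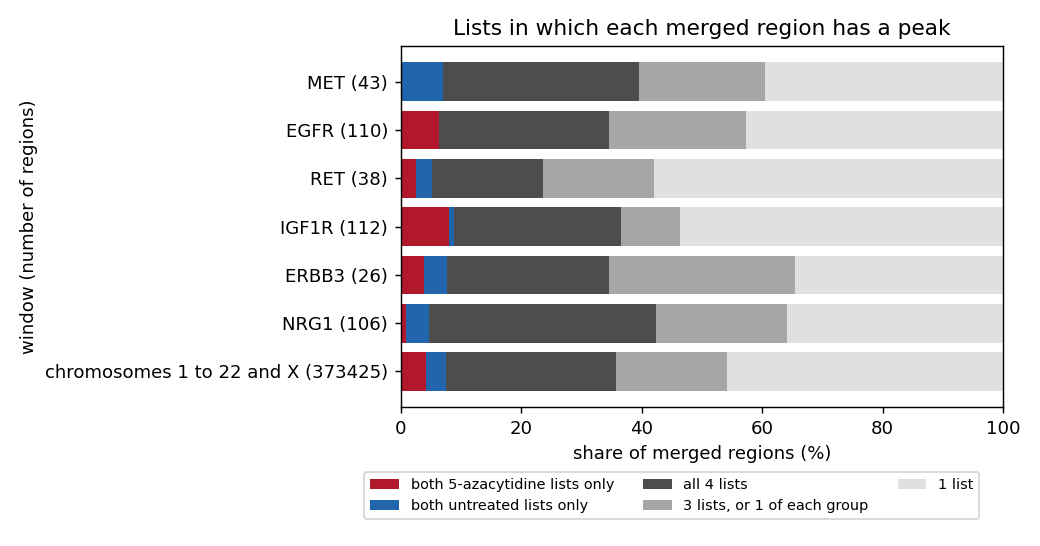
Share of merged regions (x axis, percent) by the lists in which they have a peak, for each window and for chromosomes 1 to 22 and X, with the number of regions in brackets. The gained share is 8.04% at IGF1R and 6.36% at EGFR against 4.21% over all regions. MET shows lost regions (6.98% of 43, against 3.35% over all regions) but no gained ones.

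In shared regions, both treated libraries had a higher relative coverage than both untreated ones at 32 of 130 regions in the windows, 24.6%, and a lower one at 35, 26.9%. Over all shared regions these shares were 27.2% and 22.2%, so the members again lay near the background. The median difference, treated minus untreated, was 0.10 on the log2 scale of relative coverage over the 130 members and 0.06 over all shared regions. The median of the members was −0.050 without untreated replicate 1 and −0.041 without treated replicate 2, so its sign rests on single libraries. The median over all shared regions turned as well, to −0.037 without untreated replicate 1 and −0.026 without treated replicate 2. Without scaling between libraries the counts were 4 higher and 66 lower, against 4.39% and 47.6% of all shared regions. Since both treated medians are below both untreated ones, a region lower by relative coverage is always lower without scaling. Of the 32 higher ones, 4 were higher without scaling and 6 were lower.

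MET, the receptor of hepatocyte growth factor, had 43 regions, of which 14 were shared. Relative coverage was lower in treated cells at 6 of them (42.9%) and higher at 1 (7.14%), against 22.2% and 27.2% of all shared regions. Its median difference of −0.16 (log2) was below the 0.06 of all shared regions. The highest shared region lay from 116356613 to 116357135 on chromosome 7. Its summit coverage was 24 and 61 in treated cells and 90 and 60 in untreated cells. Treated replicate 1 was the lowest there, and the groups overlapped. The clearest difference lay at the far side of the window, from 116440976 to 116441528, with 13 and 11 in treated cells and 43 and 26 in untreated cells. The relative coverage was 1.18 and 0.69 against 1.87 and 1.44, a difference of −0.87 on the log2 scale.

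The one MET region with a higher relative coverage in treated cells lay from 116313978 to 116315523, 24.8 kb inside the window. It had 11 and 14 reads at the summit in treated cells and 18 and 15 in untreated cells, so it was higher only after scaling (1.0 and 0.88 against 0.78 and 0.83, a difference of 0.21). The lost regions of MET were weak, and 0 were found with only peaks of a −log10 q of at least 5. That from 116348506 to 116349459 had 5 and 6 reads at the summit in untreated cells, and that from 116417521 to 116418266 had 7 and 5. At the first of these positions a number was missing in the run of peak names of treated replicate 2, which leaves its absence there less certain. No shared region lay between 67.1 and 122 kb from the start of the window.

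EGFR was the window most densely filled with sites, with 47.8 regions per 100 kb against 12.7 over the chromosomes used. Of its 110 regions 31 were shared, and the relative coverage was higher in treated cells at 9 (29.0%) and lower at 4 (12.9%). Of all shared regions, 27.2% were higher and 22.2% lower. The difference was above 0 at 25 of the 31 (80.6%, against 54.1% of all shared regions), with a median of 0.18 (log2). Without scaling 3 EGFR regions were higher and 14 lower. The tallest peak changed little in relative terms. It lay from 55200159 to 55201034 on chromosome 7 and had a coverage of 38 and 77 in treated cells and 91 and 75 in untreated cells. Relative to the library that was 3.45 and 4.81 against 3.96 and 4.17, and the groups overlapped.

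The largest EGFR difference in the higher direction lay from 55279867 to 55281012, where the summit had 11 and 13 reads in treated cells and 6 and 6 in untreated cells. The relative coverage was 1.0 and 0.81 against 0.26 and 0.33, a difference of 1.61. It was among the few members that were higher in treated cells without scaling as well. The largest difference in the lower direction, −0.86, was at a region 1720 bp wide from 55085724 to 55087443, which held 8 peaks. Its coverage was 8 and 17 in treated cells and 32 and 33 in untreated cells, with no overlap.

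The 7 gained regions of EGFR had no counterpart among lost regions. The strongest by the lower of its libraries lay from 55148956 to 55149598 and had 9 and 12 reads in treated cells. The next, from 55121898 to 55122417, had 7 and 7. In neither place was a peak number missing from an untreated list. Another at 163 kb from the window start, named after its values were seen, had 6 and 18. The region at 57.2 kb adjoined a further gained region at 57.7 kb and followed a shared one at 56.4 kb. That shared region had a coverage of 10 and 11 in treated cells and 5 and 7 in untreated cells. When peaks up to 150 bp apart were joined, which makes other regions of them, 3 at EGFR counted as gained.

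RET had few sites common to all libraries. Of its 38 regions 7 were shared, 18.4% against 28.2% over all regions. In 1 list only were 22 of them, 57.9% against 45.9% over all regions. The highest shared region, from 43632386 to 43634700 on chromosome 10, was also the one with the largest lower value. It was 2315 bp wide, held 13 peaks, and had a coverage of 15 and 20 in treated cells and 45 and 44 in untreated cells. The relative coverage was 1.36 and 1.25 against 1.96 and 2.44, a difference of −0.74. In the RefSeq gene table (GRCh38.p14) the next protein-coding gene after RET is CSGALNACT2, an enzyme of chondroitin sulphate synthesis, and to which gene this region belongs was not determined. The region with the largest higher value lay from 43640699 to 43641224, with summits of 7 and 7 in treated cells and 6 and 5 in untreated cells, a difference of 0.97 near the lowest coverage that is listed. The gained region at 76.5 kb had 7 and 6 in treated cells, and the lost region at 46.8 kb had 4 and 5 in untreated cells, where both treated lists lacked a peak number.

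**Figure D3:**
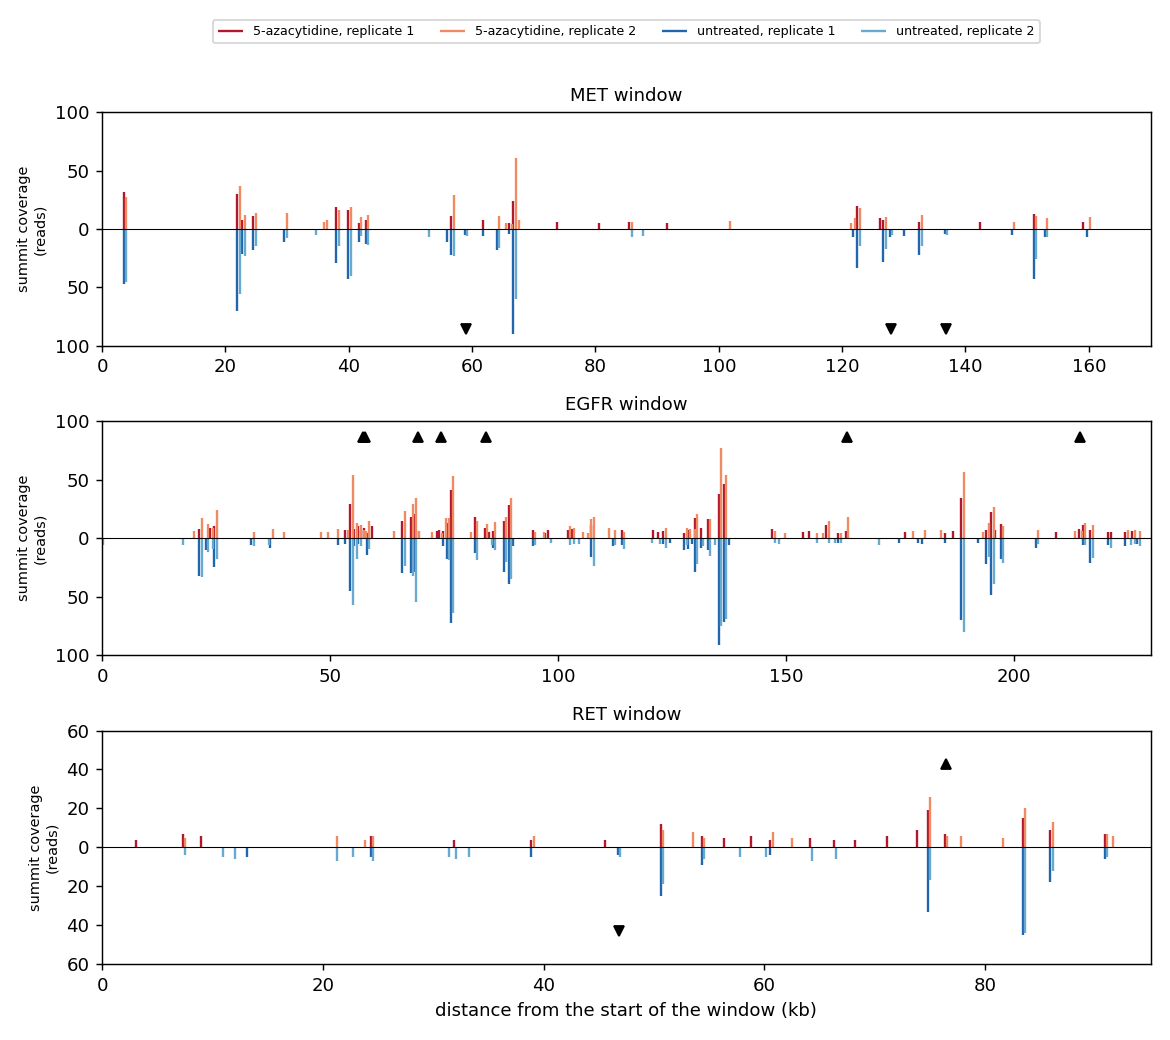
Summit coverage (y axis, reads) of every region of the MET, EGFR and RET windows against the distance from the start of the window (x axis, kb), with treated libraries drawn upwards and untreated libraries downwards. Triangles pointing up mark gained regions and triangles pointing down lost ones; EGFR shows 7 gained and 0 lost regions and MET 0 gained and 3 lost.

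IGF1R, the receptor of the insulin-like growth factors, had the most gained regions of the windows, 9 beside 1 lost region. The surplus of peaks in treated cells was clearest among weak peaks. Peaks with a coverage of 6 or less numbered 33 and 27 in treated cells and 11 and 14 in untreated cells. Peaks with a coverage of 10 or more numbered 28 and 49 in treated cells and 39 and 39 in untreated cells, and there the groups overlapped. Treated lists held more weak peaks over all chromosomes too, 116925 and 73391 with a coverage of 6 or less, against 51659 and 66503 in untreated cells. Its part in the IGF1R surplus was not tested. Of the 60 IGF1R regions found in 1 list only, 88.3% were in a treated list, against 65.9% of such regions over all chromosomes. On chromosome 15 the gained region from 99331361 to 99332175 reached 7 and 11 reads in treated cells, and that from 99212682 to 99213233 had 6 and 7. The lost region from 99417933 to 99419036 had 7 and 6 in untreated cells.

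Of the 6 shared IGF1R regions with a mean coverage of 40 or more, 0 were higher and 3 lower in treated cells by relative coverage, against 11.4% and 45.1% of all shared regions of that height. The highest shared region, from 99270744 to 99271818, reached 54 and 78 reads in treated cells and 108 and 90 in untreated cells. Relative to the library these were 4.91 and 4.88 against 4.70 and 5.00, which overlap and differ by 0.01 (log2). Of 31 shared regions, 7 were higher (22.6%) and 10 lower (32.3%) in treated cells by relative coverage, against 27.2% and 22.2% over all. The median difference was 0.01. The largest higher value was at 99281774 to 99282443, with a coverage of 10 and 14 in treated cells and 5 and 10 in untreated cells, a difference of 1.36. Without scaling the groups met there, since treated replicate 1 and untreated replicate 2 both had 10. The largest lower value, −0.80, was at 99225972 to 99226726, with 7 and 9 in treated cells and 18 and 25 in untreated cells.

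ERBB3, the partner receptor that binds neuregulin, had 26 regions in the shortest window. The tallest region of all the windows, by mean coverage or mean relative coverage, lay here. The region from 56497956 to 56499023 on chromosome 12 reached 76 and 83 reads in treated cells and 182 and 180 in untreated cells. Its relative coverage was 6.91 and 5.19 against 7.91 and 10, a difference of −0.57. The region at 57.1 kb, named after its values were seen, had 49 and 50 in treated cells and 129 and 103 in untreated cells, a difference of −0.60. RefSeq (GRCh38.p14) lists PA2G4, RPL41 and ZC3H10 directly after ERBB3, and PA2G4 and RPL41 are genes that most cells use. These regions lay 43.5 and 57.1 kb into a window of 60 kb, and to which gene they belong was not determined.

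Other ERBB3 regions followed no common direction. The largest lower value, −0.74, was from 56513120 to 56513655, with 11 and 12 in treated cells and 32 and 27 in untreated cells. The largest higher value, 1.12, was from 56465367 to 56465941, with 10 and 10 in treated cells and 5 and 10 in untreated cells. Without scaling the groups met there at 10 reads. The gained region at 59.1 kb had a coverage of 4 and 4 in treated cells, the lowest value listed. The lost region at 11.7 kb had 5 and 9 in untreated cells, and both treated lists lacked a peak number there.

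NRG1, the gene of the ligand neuregulin, was sparse for its length, with 9.10 regions per 100 kb against 12.7 over the chromosomes used. Of its 106 regions 40 were shared, 37.7% against 28.2% over all regions. Shared regions alone were nearly as dense as over the chromosomes used, with 3.43 against 3.58 per 100 kb. Of the 40, 10 were higher (25%) and 11 lower (27.5%) in treated cells by relative coverage. Of all shared regions, 27.2% were higher and 22.2% lower. The highest shared region lay from 31612388 to 31613227 on chromosome 8, with summits of 38 and 67 in treated cells and 68 and 55 in untreated cells. Relative to the library that was 3.45 and 4.19 against 2.96 and 3.06, a difference of 0.34, while without scaling the groups overlapped. The largest lower value of all members, −0.98, was from 31668103 to 31668978, with 6 and 7 in treated cells and 24 and 16 in untreated cells. The largest higher value at NRG1, 1.08, was from 31690951 to 31691974, where treated replicate 2 had 22 reads and treated replicate 1 had 7, against 9 and 9 in untreated cells. Without scaling the groups overlapped at that region.

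The 4 lost regions of NRG1 make 3.77% of its regions, against 3.35% over all. One, from 32312079 to 32312591, reached 15 and 9 reads in untreated cells, and that from 31685782 to 31686303 had 10 and 8. No peak number was missing from the treated lists at any of the 4. The gained region, from 32403798 to 32404322, had 9 and 8 in treated cells, but both untreated lists lacked a peak number there. It lay beside a shared region with 15 peaks at 931 kb, named after its values were seen, which had a coverage of 14 and 26 in treated cells and 39 and 36 in untreated cells. No shared region was found over 167 kb, from 409 to 576 kb inside the window.

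**Figure D4:**
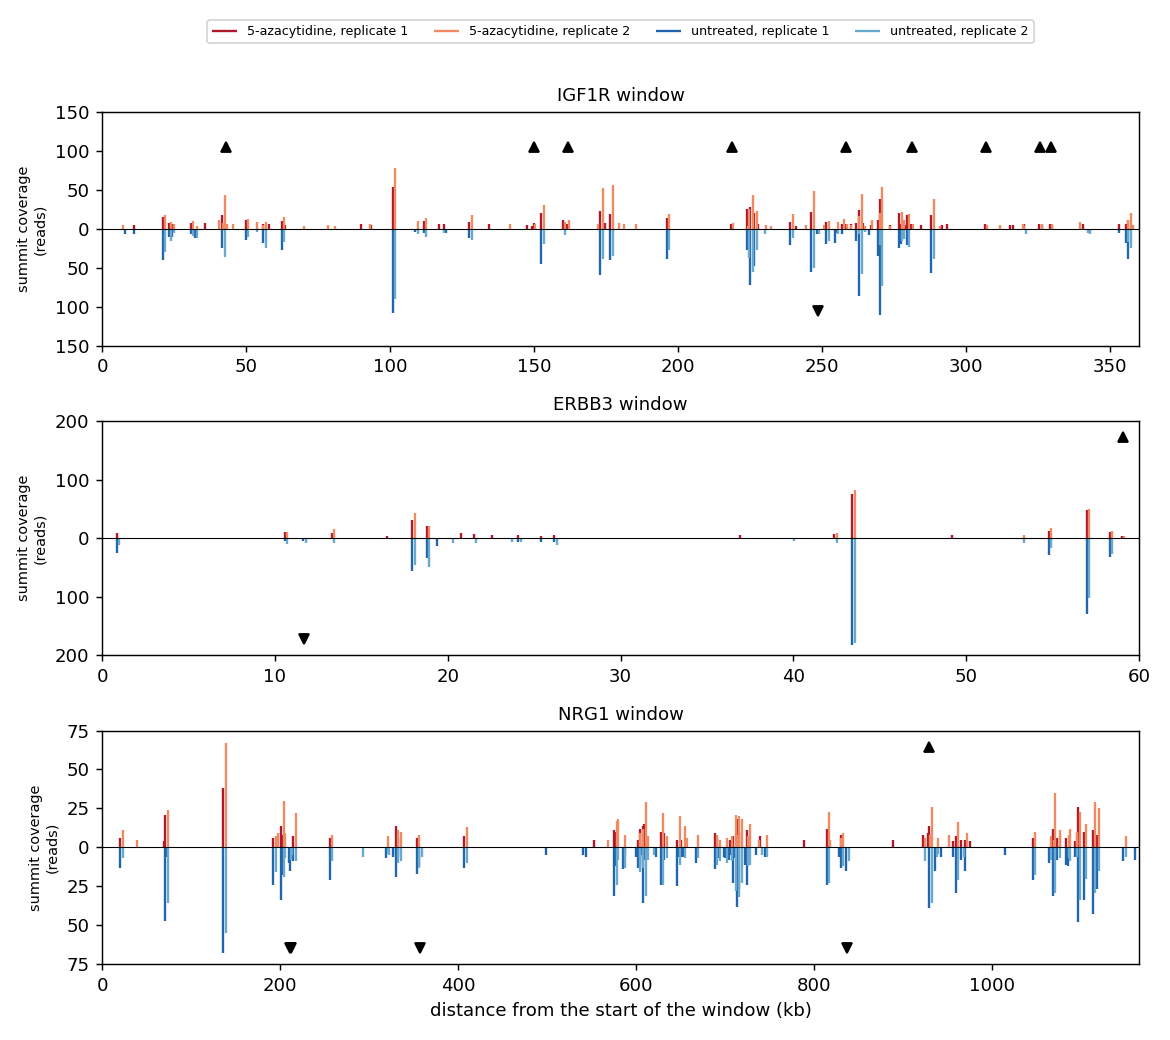
Summit coverage (y axis, reads) of every region of the IGF1R, ERBB3 and NRG1 windows against the distance from the start of the window (x axis, kb), with treated libraries drawn upwards and untreated libraries downwards. Triangles pointing up mark gained regions (9 at IGF1R, 1 at ERBB3, 1 at NRG1) and triangles pointing down lost ones (1, 1 and 4), and the tallest lines are those of ERBB3 at 43.5 kb.

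Each window held shared regions between 18 and 25 kb from its start, a stretch looked at after the values were seen. There were 12 such regions, 3 of them higher and 4 lower in treated cells by relative coverage. Of all shared regions, 27.2% were higher and 22.2% lower. At MET the region at 22.2 kb had a coverage of 30 and 37 in treated cells and 70 and 56 in untreated cells. At EGFR the region at 21.6 kb is the wide one given above. At IGF1R the region at 21.5 kb was 2746 bp wide, held 16 peaks, and had 16 and 18 in treated cells and 40 and 30 in untreated cells. By relative coverage the groups did not overlap in any of these, with treated cells lower. Their neighbours in the stretch differed. MET was lower in treated cells at 22.9 kb (−0.55) but higher at 24.8 kb (0.21), and IGF1R was higher at 24.7 kb (0.49). The groups overlapped at 23.7 kb of IGF1R (0.04), at 24.8 kb of EGFR (0.16) and at 18.9 kb of ERBB3 (−0.39). At RET the region at 24.5 kb had 6 and 6 in treated cells and 5 and 7 in untreated cells, and at NRG1 the region at 21.9 kb had 6 and 11 in treated cells and 13 and 7 in untreated cells. At ERBB3 the region at 18 kb had 31 and 43 in treated cells and 57 and 46 in untreated cells, where the relative coverage was slightly higher in treated cells, by 0.13.

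The direction of a shared region went with its height in the windows and over all chromosomes, but the counts differed at a mean coverage of 10 to under 20. Among 24 members with a mean coverage under 10, 14 were higher and 0 lower in treated cells, where 48.0% and 3.40% of all shared regions of that height were. The median difference was 0.63 (log2), against 0.51 over all shared regions of that height. At a mean coverage of 10 to under 20, the median was 0.06 for 49 members and 0.11 over all. Of these 49, 11 were higher (22.4%) and 16 lower (32.7%). Of all shared regions of that height, 28.6% were higher and 17.3% lower, the opposite order. At 20 to under 40 the median was −0.09 for 40 members and −0.11 over all, and at 40 or more −0.06 for 17 members and −0.21 over all. The members there split 5 higher and 13 lower, and 2 higher and 6 lower. Over all shared regions of these heights, lower ones also outnumbered higher ones. These limits of height were chosen after the values were seen. At the weak end the lowest listed coverage, given above, is higher in treated cells in relative terms, and its part in the pattern was not tested.

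**Figure D5:**
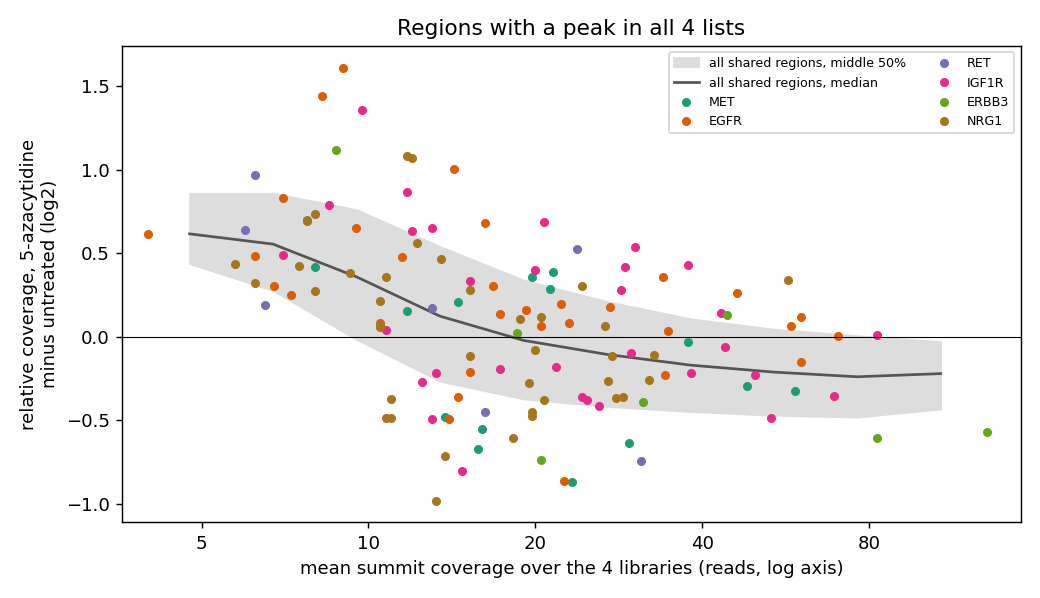
Difference in relative coverage, treated minus untreated (y axis, log2), against the mean summit coverage of the 4 libraries (x axis, reads, log scale) for the 130 shared regions of the windows, coloured by window. The grey line and band are the median and the quartiles of all shared regions. The members fall from a median of 0.63 under a coverage of 10 to −0.09 at 20 to under 40. At 40 or more their median is −0.06, against −0.21 over all shared regions.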

How the data were processed

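ATAC-seq of BCPAP cells was analysed from 4 peak lists, 1 per library. Per the submitters' processing notes, Trimmomatic, Bowtie2, Picard and MACS2 were used on hg19. Versions, settings and any shift of read ends for the transposase were not given in the labels. The deposited lists hold a peak score (signal) that sums to 1000000 in each deposited list, as the values show, which was not used for values. They also hold the authors' fold enrichment as a ratio and the −log10 p and q values of each peak, which describe that peak. Each fold value was a whole multiple of 1 step per list (within 0.001 of a step), and the summit coverage is that multiple less 1. Summit positions served the summit distances and 1 alternative. Depth in reads is unknown.

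Peaks on chromosomes 1 to 22 and X were merged where they shared at least 1 bp. The merging and the calls were tested on simulated lists, mostly of sites far apart and with a coverage well above the lowest listed value. Weak sites near that value were not simulated. The simulation therefore cannot show how well calls hold for the weak and closely spaced regions of the windows. Peak counts per group were compared by exact permutation (two-sided, 6 ways to split the libraries). Single regions got no test. Named regions were, per window, the shared region with the highest mean relative coverage, up to 2 gained and 2 lost regions by the lower of their coverages, and the shared regions with the largest difference in each direction among those without overlap. Members, lists and rules were chosen with earlier results of these data known. Other genes of the pathway and peak sequences were not analysed here, as they need hg19 positions or sequence. The software was matplotlib 3.10.9, pandas 2.3.3, numpy 2.4.6 and Python 3.11.15.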

Additional observations from a re-analysis of the deposited data

How the results depend on the processing

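The log2 ratio of peaks in treated over untreated lists was 0.24 over the 6 windows and kept its sign except at a −log10 q of at least 5, where it was −0.024 and MET was at 0. The ratio over all chromosomes went with it, at −0.22 there and 0.18 in the full lists, and IGF1R was at 0.15 there and 0.63 in the full lists. That setting redefines the regions. It gave 5 gained (2.67%, against 2.23% of all regions), 15 higher and 20 lower (19.7% and 26.3% of shared regions, against 24.2% and 25.5% of all). An equal number of peaks per list lowered the median difference of relative coverage to 0.031, and to 0.024 over all shared regions. That setting gave 17 gained of 402 regions in the windows, against 10830 of 339002 over all chromosomes. Summits with 100 bp on either side gave 29 gained of 553 regions in the windows, against 17954 of 486804 over all chromosomes. MET then had 1 gained and 1 lost region. Widening the windows turned ERBB3 to 0.090. By rank within the list 32 were higher and 24 lower (24.6% and 18.5%, against 29.0% and 17.9% of all). Without scaling between libraries 4 shared regions were higher, 66 lower, and the median difference was −0.52. Leaving out 1 library changes what gained and lost require, so these counts differ by construction. Gained regions then numbered 28 to 90 and lost 16 to 44, of 379 to 416 regions in the windows. Over all chromosomes gained regions then numbered 23905 to 90750 and lost 20179 to 43399, of 309953 to 352262. Higher regions numbered 40 to 60 and lower 49 to 61, of 137 to 156 shared regions in the windows. Of all shared regions, 35.0% to 38.5% were then higher and 36.3% to 40.2% lower. The median difference ran from −0.050 (without untreated replicate 1) to 0.036, and was −0.041 without treated replicate 2, so its direction rests on single libraries. Over all shared regions the median difference was −0.037 without untreated replicate 1 and −0.026 without treated replicate 2. The peak ratio ran from −0.084 (without treated replicate 2) to 0.23 at MET, and from −0.44 to 0.28 at ERBB3, where it turned without treated replicate 2 or without untreated replicate 2. EGFR, RET, IGF1R and NRG1 kept their direction in each of these settings. Same-numbered libraries did not deviate together (r = −0.052 over shared regions, with no p). With 2 libraries per group this value cannot show whether they shared a culture or a batch. With the replicate block the ratio was 0.24 (0.237 to 3 digits), and no direction changed. Leaving out gained and lost regions with a missing peak number kept 16 gained and 7 lost of 429 regions. That filter was applied in the windows only, so there is no share over all regions to set beside these counts. Apart from the construction named, the cause of these changes was not tested. The unknown read depth limits weak peaks most.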

Other observations

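In 87 shared regions of the windows with 1 peak per list, the summits of the 4 libraries lay within a median of 69 bp of each other, against 61 bp over 69820 such regions on all chromosomes. Of the 87, 37.9% had all summits within 50 bp, against 42.2% over all.

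Regions found in 1 list were split differently in the 6 windows. Treated replicate 1 held 64 and treated replicate 2 held 67, beside 31 in each untreated library. Over all chromosomes treated replicate 1 held 42.0% of such regions and treated replicate 2 held 23.9%, whereas in the windows they held 33.2% and 34.7%. At NRG1 17 of 38 such regions were in treated lists and 17 in untreated replicate 1 alone. These regions had a median coverage of 5 in both treated libraries, and of 6 and 5 in untreated replicates 1 and 2, close to the lowest listed value.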
